A study of Homo sapiens with 8 samples.

Results

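The genes of interleukin-6 (IL6) and insulin-like growth factor 1 (IGF1) signalling were examined in total RNA sequencing of multiple myeloma cells. They were 10 of the 23617 genes in the expression table and were taken by symbol from a list of ligands, receptors and signalling proteins: IL6, IL6R, IL6ST, JAK1, JAK2, STAT3, SOCS3, IL10RA, IGF1 and IGF1R. All 10 were found. The study sequenced 8 samples in 4 groups of 2. KMS11 is a multiple myeloma line whose translocation drives the histone methyltransferase MMSET to a high level, and TKO is a KMS11 derivative with that rearranged allele knocked out and low MMSET. Both lines received 2 µM of the EZH2 inhibitor GSK343 or of its inactive counterpart GSK669 for 7 days. Any difference between the lines would therefore rest on 1 parent line and its derivative.

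The expression table held 4 sets of values named q1, q2, q3 and q4. No label or header tied a set to a line or a compound, and the number of libraries behind a set was not given in the sources used here. Sets were therefore described under their own names. None was assigned to KMS11, TKO, GSK343 or GSK669, and no comparison of lines or compounds was made. WHSC1, the symbol under which the table lists MMSET, stood at 153 FPKM (fragments per kilobase of transcript, scaled to library size) in q1, 154 in q2, 41.4 in q3 and 40.5 in q4. This level was not used to name a set.

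IL6 is a growth and survival factor for myeloma cells that is supplied largely by the bone marrow stroma. It binds IL6R, which then recruits the shared signal transducer IL6ST (gp130), and the kinases JAK1 and JAK2 bound to the receptor tails phosphorylate the transcription factor STAT3. STAT3 induces SOCS3, which binds the receptor complex and shuts signalling down. IL10RA is the ligand-binding receptor of interleukin-10, which also signals through JAK1 and STAT3. IGF1 binds the receptor tyrosine kinase IGF1R, which feeds the PI3K and RAS pathways and is a further source of growth signals in myeloma.

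Each value below is given with the lower and upper confidence limits that the authors' software reported for that set, whose level was not given in the sources used here. Limits were called apart when the lower limit of the set with more exceeded the upper limit of the set with less. Limits apart describe these sets and are not a test between groups, because no value per replicate was available. The limits lay 21.0% of the value to either side for the median gene, so that limits of this width separate only at a ratio of about 1.53 or more. A gene was compared when it reached 1 FPKM in at least 1 set with an accepted status in every set, which 11957 genes did. In a population of cells, a lower level cannot be told apart as fewer cells with the transcript or less transcript per cell.

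The promoter of IL6R is shown as the sequence of the receptor that begins the IL6 arm. Other members' promoters are not reported here. The line gives the 250 bases before the 5′ end of the gene's interval in the table, 5′ to 3′ on the gene's strand, read from GRCh37 (the assembly of hg19).

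IL6R, chr1:154377419-154377668, plus strand: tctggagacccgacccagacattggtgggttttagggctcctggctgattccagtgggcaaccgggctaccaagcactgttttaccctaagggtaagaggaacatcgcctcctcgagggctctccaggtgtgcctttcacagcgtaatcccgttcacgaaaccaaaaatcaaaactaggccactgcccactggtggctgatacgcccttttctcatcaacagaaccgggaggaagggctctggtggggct

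The IL6R window was 55.6% G and C, with CpG dinucleotides at 0.47 of the number expected from its base composition, against medians of 60.0% and 0.68 over the 15033 promoters read in the same way. These figures describe the letters in the window and were not tested against expression.

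IL6 itself was nearly absent from the table. Its interval on chromosome 7 (22766766 to 22771621, plus strand) carried 0.0153 FPKM in q1 (limits 0 to 0.0587), 0.0152 in q2 (0 to 0.0587), and was listed at 0 in q3 and q4. No set had a lower limit above 0. Sequencing depth is unknown, so how much IL6 transcript these values would miss could not be stated.

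IL6R, the IL6-binding receptor, was present at a low level that differed between sets. It lies on chromosome 1 (154377669 to 154441926, plus strand). Its level was 1.41 FPKM in q1 (1.11 to 1.72), 0.878 in q3 (0.651 to 1.1), 0.563 in q2 (0.396 to 0.730) and 0.374 in q4 (0.247 to 0.50). Set q1 was the highest and was apart from the other 3, from q3 only narrowly. Neighbours further down the order, q3 with q2 and q2 with q4, had overlapping limits. IL6R was 2.51 times as high in q1 as in q2, and 2.35 times as high in q3 as in q4, with limits apart in both pairs. It passed the minimum of 1 FPKM through q1 alone.

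IL6ST, the shared transducer, was the most abundant of the 10 genes. It lies on chromosome 5 (55230925 to 55290821, minus strand). IL6ST measured 126 FPKM in q3 (102 to 150), 126 in q4 (102 to 149), 93.8 in q1 (76.0 to 111) and 88.0 in q2 (71.5 to 104). The values in q3 and q4 were above those in q1 and q2, but all 4 ranges overlapped. The level of IL6ST was at or above that of at least 95.5% of the genes in the table in every set. Of the IL6 receptor pair, the ligand-binding chain was therefore far less abundant than the transducer in each set.

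JAK1 and JAK2, the receptor-associated kinases, differed in abundance from one another more than between sets. JAK1, on chromosome 1 (65210778 to 65432187, minus strand), measured 77.8 FPKM in q1 (61.6 to 94.0), 72.2 in q2 (57.4 to 87.0), 85.6 in q3 (68.3 to 103) and 87.9 in q4 (70.5 to 105). JAK2, on chromosome 9 (4985245 to 5128183, plus strand), measured 2.68 FPKM in q1 (2.15 to 3.20), 2.35 in q2 (1.87 to 2.81), 3.28 in q3 (2.66 to 3.91) and 3.14 in q4 (2.53 to 3.75). For both kinases every pair of sets had overlapping limits. The JAK1 interval in the table also holds RAVER2.

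STAT3, the transcription factor of the pathway, was abundant in every set. On chromosome 17 (40465343 to 40540513, minus strand), it stood at 50.1 FPKM in q1 (40.6 to 59.5), 41.8 in q2 (33.9 to 49.6), 41.1 in q3 (33.3 to 49.0) and 32.8 in q4 (26.7 to 39.0). The limits of neighbouring sets overlapped throughout. Only q1 and q4, the ends of the order, were apart, at a ratio of 1.53.

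SOCS3, the feedback inhibitor, varied the most among the genes of the IL6 arm. It lies on chromosome 17 (76352859 to 76356158, minus strand). Its level was 29.6 FPKM in q1 (23.1 to 35.9), 16.2 in q3 (12.7 to 19.8), 9.81 in q2 (7.61 to 12.0) and 6.99 in q4 (5.48 to 8.48). The limits of q1 and q3 were apart, as were those of q3 and q2, while q2 and q4 overlapped. SOCS3 was 3.02 times as high in q1 as in q2, 2.32 times as high in q3 as in q4, and 4.24 times as high in q1 as in q4. The order of the values, q1, q3, q2, q4, was the one seen for IL6R, where the limits of q3 and q2 overlapped.

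**Figure D1:**
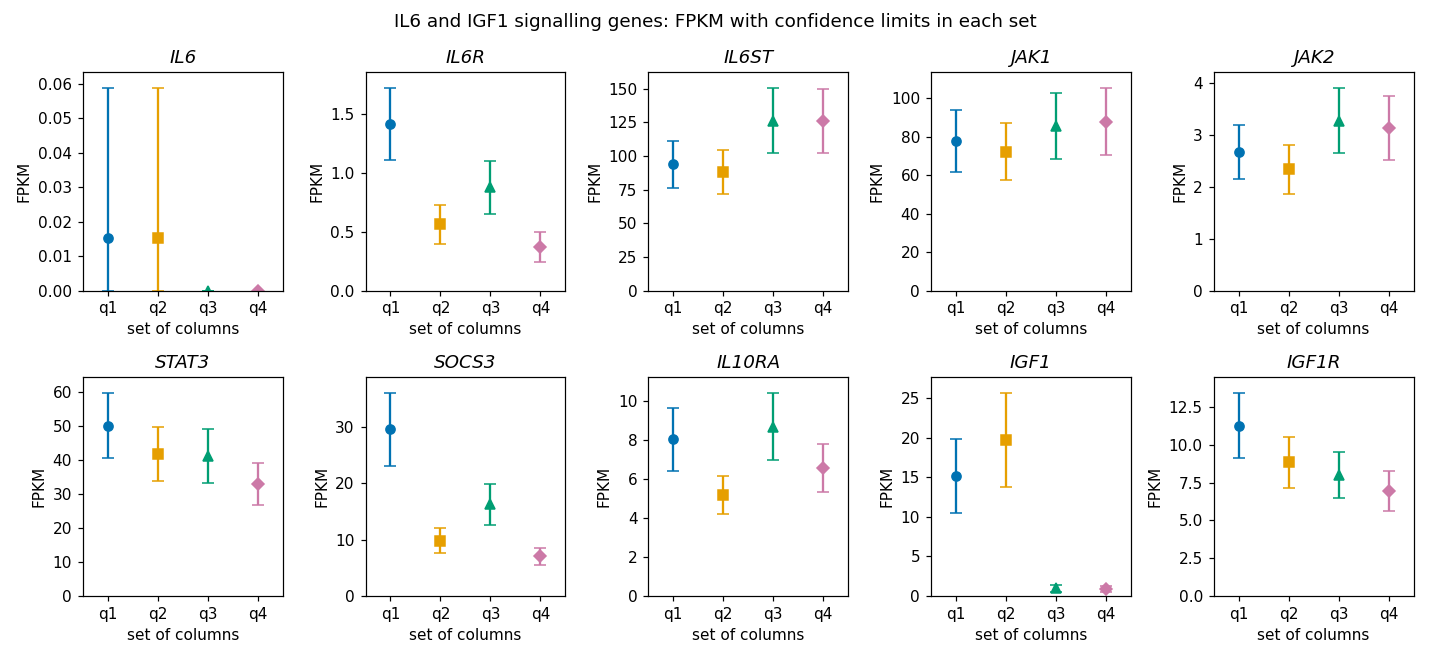
FPKM of the 10 genes (y axis of each panel, starting at 0) in the sets q1 to q4 (x axis), with points for the values and bars for the confidence limits in the table. SOCS3 and IL6R stand higher in q1 than in q2 and higher in q3 than in q4, IGF1 is at 15.2 and 19.7 FPKM in q1 and q2 and below 1 FPKM in q3 and q4, and the bars of IL6ST, JAK1 and JAK2 overlap across all sets.

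IL10RA, the interleukin-10 receptor chain, showed a smaller difference. On chromosome 11 (117857106 to 117872199, plus strand), it measured 8.66 FPKM in q3 (6.94 to 10.4), 8.02 in q1 (6.41 to 9.62), 6.54 in q4 (5.30 to 7.78) and 5.15 in q2 (4.18 to 6.13). Every pair of neighbours in this order overlapped. Set q2 was apart from both q1, which was 1.56 times as high, and q3, which was 1.68 times as high. Between q3 and q4 the ratio was 1.32 and the limits overlapped.

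IGF1, the growth factor of the second arm, showed the largest difference of the 10 genes. It lies on chromosome 12 (102789645 to 102874378, minus strand). IGF1 measured 19.7 FPKM in q2 (13.8 to 25.7), 15.2 in q1 (10.5 to 19.9), 0.943 in q3 (0.504 to 1.38) and 0.818 in q4 (0.442 to 1.19). The limits of q1 and q2 overlapped, as did those of q3 and q4, and both of the former were apart from both of the latter. It passed the minimum through q1 and q2. The ratio was 16.1 for q1 over q3, with 7.60 as the smallest ratio the limits allow, and 24.1 for q2 over q4, with 11.5 as the smallest. WHSC1 was likewise high in q1 and q2 and lower in q3 and q4. The part of MMSET in the IGF1 difference was not tested.

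IGF1R, the receptor, did not share that pattern. On chromosome 15 (99192761 to 99507759, plus strand), it measured 11.3 FPKM in q1 (9.15 to 13.4), 8.85 in q2 (7.16 to 10.5), 7.99 in q3 (6.47 to 9.51) and 6.93 in q4 (5.61 to 8.26). All neighbouring sets overlapped. The extremes, q1 and q4, were apart at a ratio of 1.63. The microRNA gene MIR4714 lies in the same interval.

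**Figure D2:**
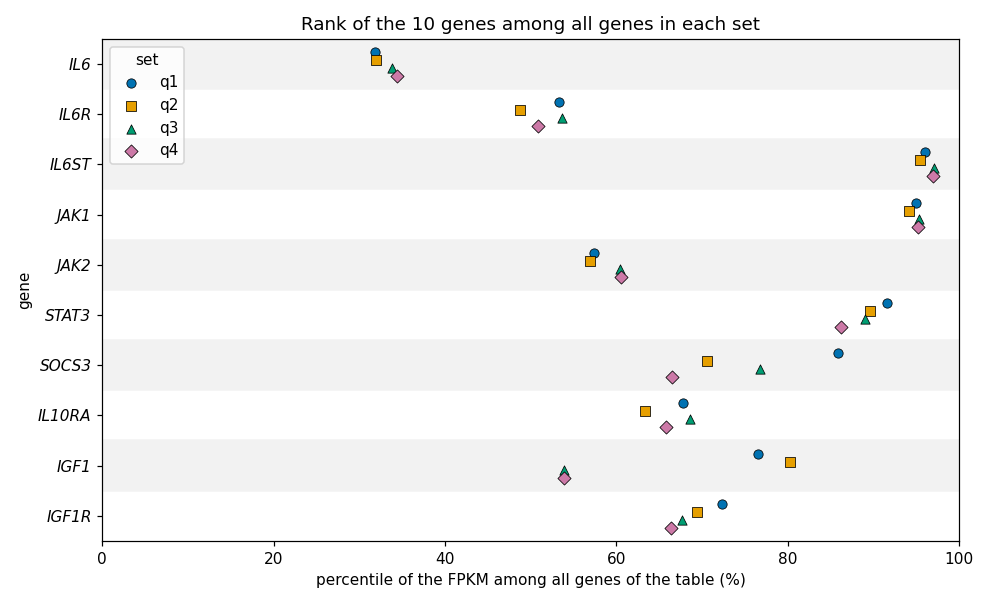
Percentile of each gene's FPKM among all 23617 genes of the table (x axis, share of genes at or below that level) for the 10 genes (y axis), with a symbol for each set. IL6ST and JAK1 are at or above the level of at least 94.2% of genes in every set, SOCS3 ranges from 66.5% to 85.9% and IGF1 from 53.9% to 80.3%; IL6, listed at 0 in q3 and q4, shares its rank there with every other gene at 0.

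The same comparison was made for all genes so that the members could be read against it. Between the highest and the lowest set, 6 of the 9 members that passed the minimum had limits apart (IL6R, STAT3, SOCS3, IL10RA, IGF1 and IGF1R), against 41.2% of all genes compared. The minimum could be met by the highest set alone, which favours genes that differ, among the members and among all genes. IL6R passed through q1 alone and IGF1 through q1 and q2. A ratio of at least 2 on the scale of FPKM plus 1 was reached by SOCS3 and IGF1, that is by 2 of 9, against 21.6% of genes. The median log2 ratio of highest to lowest set on that scale was 0.63 for the members and 0.53 for all genes compared. By the ratio, the members' share was near that of the table as a whole. By the limits it was higher, a difference of few genes that was not tested.

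The pairs of sets differed widely in how many genes were apart. Limits were apart for 31.0% of genes between q1 and q3, 33.0% between q1 and q4, 32.7% between q2 and q3, and 33.4% between q2 and q4. Members apart numbered 3 of 9 between q1 and q3 (IL6R, SOCS3 and IGF1), 5 between q1 and q4 (IL6R, STAT3, SOCS3, IGF1 and IGF1R), 3 between q2 and q3 (SOCS3, IL10RA and IGF1) and 1 between q2 and q4 (IGF1). These comparisons share sets and are not independent of each other.

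Within the other pairs few genes were apart. Higher in q1 than in q2 were 2.19% of genes, and higher in q2 than in q1 were 0.694%. Of the members, IL6R, SOCS3 and IL10RA were higher in q1 and none was higher in q2. Higher in q3 than in q4 were 2.56% of genes, and higher in q4 were 0.351%. IL6R and SOCS3 were higher in q3 and no member was higher in q4. Both conditions, q1 above q2 and q3 above q4, were met by 80 genes (0.669% of those compared). IL6R, which passed the minimum through q1 alone, and SOCS3 were 2 of these 80. With 9 members compared, this is a description of IL6R and SOCS3 and not a property of the pathway.

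**Figure D3:**
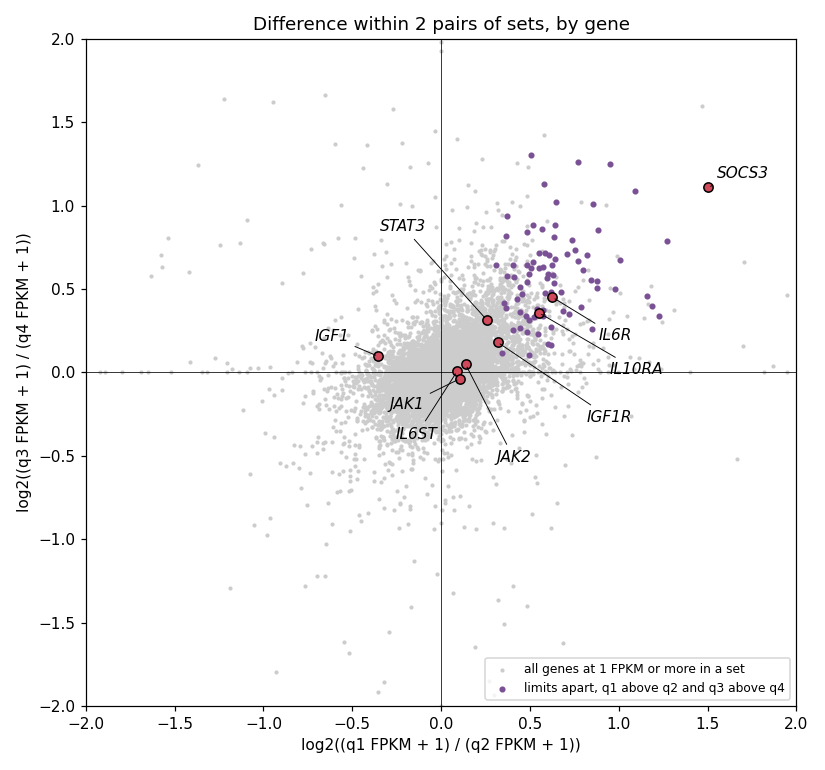
Log2 ratio of q1 to q2 (x axis) and of q3 to q4 (y axis), each on FPKM plus 1, for the 11957 genes compared; 202 genes lie outside the axes. Purple points are the 80 genes with limits apart in both pairs and red points are the 9 members compared, IL6R and SOCS3 being among the 80: SOCS3 lies at the upper right, IL6R and IL10RA nearer the middle, and JAK1, JAK2 and IL6ST close to 0 on both axes.

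The wider pathway lists held 86 further genes, all present in the table, of which 57 passed the minimum. Some of the 57, such as BCL6, passed only through the set where they were highest. Limits were apart between the highest and the lowest set for 35 of these 57 (61.4%), against 41.2% of all genes compared, with a median log2 ratio of 0.64 against 0.53. A ratio of at least 2 on the scale of FPKM plus 1 was reached by 17, against 21.6% of all genes. Higher in q1 than in q2 were 3 of the 57 (IL10, FOS and BCL6), against 2.19% of all genes compared. BCL2L1 and PTPN6 were higher in q2, against 0.694% of all genes. None of the 57 was apart between q3 and q4 in either direction. Of all genes compared, 2.56% were higher in q3 and 0.351% in q4, so none of 57 is near those shares.

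Among the other genes of the IL6 family, most ligands were low and the receptors ranged widely. Of the 9 ligands listed, IL6 included, OSM and CNTF alone reached 1 FPKM, and the lower limit of CNTF was 0 in every set. The other 7 were below 1 FPKM in every set, against 11617 of the 23617 genes in the table. OSM (oncostatin M), the most abundant, measured 2.36 FPKM in q1 (1.65 to 3.0) and 3.63 in q3 (2.64 to 4.56), with all sets overlapping. IL27RA, a receptor chain for interleukin-27, was at 38.6 to 43.5 FPKM with all sets overlapping. IL11RA, the interleukin-11 receptor, measured 1.55 FPKM in q1 (1.07 to 2.03), 2.01 in q2 (1.45 to 2.58), 0.382 in q3 (0.181 to 0.595) and 0.307 in q4 (0.136 to 0.481). Sets q1 and q2 were both apart from q3 and q4 for IL11RA.

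The interleukin-10 family included the ligand of IL10RA. IL10 measured 28.0 FPKM in q1 (20.6 to 33.9), 4.20 in q2 (3.01 to 5.31), 3.69 in q3 (2.62 to 4.76) and 2.02 in q4 (1.36 to 2.67). Set q1 was apart from every other set and 6.68 times as high as q2. Set q2 was also apart from q4, at 2.08 times its level, but not from q3, and q3 and q4 overlapped only narrowly. IL10RB, the second chain of the receptor, was between 26.6 and 34.7 FPKM with all sets overlapping. IL22RA1, an interleukin-22 receptor chain, was 1.89 and 1.60 FPKM in q1 and q2 and 7.07 and 7.28 in q3 and q4.

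None of the 4 JAK family genes had its highest and lowest sets apart, with JAK3 at 26.7 to 37.8 FPKM and TYK2 at 25.8 to 34. Of 6 STAT genes above the minimum, STAT3 included, 5 were apart, against 41.2% of all genes compared. STAT4, 1 of the 5, passed the minimum only through q1 and q2, where it was highest. The difference between these lists was not tested. STAT6, the interleukin-4 factor, showed 23.9, 22.9, 53.2 and 46.1 FPKM in q1 to q4. Sets q1 and q2 of STAT6 were both apart from q3 and q4, in the direction opposite to IGF1.

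Among 15 negative regulators above the minimum, SOCS3 included, 9 were apart, against 41.2% of all genes compared. SOCS1, 1 of the 9, passed the minimum only through q4, where it was highest. PTPN6 (SHP-1), a phosphatase that dampens cytokine receptors, measured 4.36 FPKM in q1 (3.45 to 5.27), 8.29 in q2 (6.70 to 9.87), 0.542 in q3 (0.320 to 0.764) and 1.1 in q4 (0.760 to 1.44). SOCS6 showed the reverse, with 4.09 and 3.57 FPKM in q1 and q2 and 12.4 and 11.8 in q3 and q4. PIAS3, an inhibitor of STAT3, ranged from 26.7 FPKM in q2 to 43.4 in q4, the highest single value of the list. In q1 and q2 the phosphatase gene PTPN1 was above it, at 41.7 and 38.4 FPKM.

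Genes known as STAT3 targets did not move as one. Of 11 above the minimum, SOCS3 included, 10 were apart and 8 also reached a ratio of 2 on the scale of FPKM plus 1, against 41.2% and 21.6% of all genes compared. PIM2, a survival kinase, was the most abundant at 914, 746, 435 and 409 FPKM in q1 to q4. BCL2L1, an anti-apoptotic gene, was highest in q2 at 80.6 FPKM (65.5 to 95.7). CCND1, a G1 cyclin, measured 1.97 FPKM in q1 (1.54 to 2.41), 1.24 in q2 (0.948 to 1.54), 0.0587 in q3 and 0.0525 in q4. For CCND1, q1 and q2 were not apart from each other, and the minimum was passed through q1 and q2 only. VEGFA and JUNB were higher in q3 and q4, VEGFA at 14.0 and 15.1 FPKM against 3.52 and 3.26. FOS, an immediate early gene, measured 7.79 FPKM in q1 (5.96 to 9.59), 1.70 in q2 (1.19 to 2.21), 15.8 in q3 (12.0 to 19.5) and 9.61 in q4 (7.13 to 12.1).

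**Figure D4:**
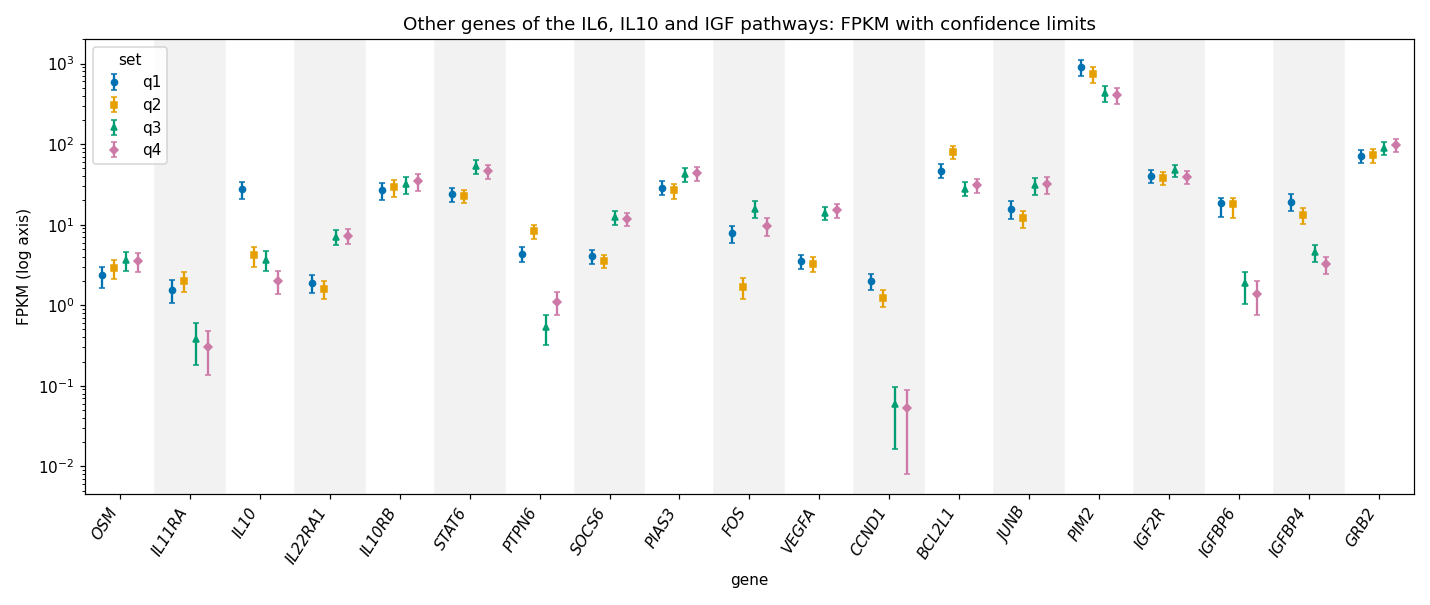
FPKM on a log axis (y axis) of 19 other pathway genes (x axis) in the 4 sets, with confidence limits as bars. IL10 stands apart in q1 at 28.0 FPKM, IGFBP6, IGFBP4, IL11RA and CCND1 are higher in q1 and q2 than in q3 and q4, and STAT6, SOCS6 and VEGFA are lower there.

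In the IGF arm, 4 of the 8 genes of the binding protein list (IGFBP1 to IGFBP7 and IGFALS) were below 1 FPKM in every set. This is near the share of the whole table, where 11617 of 23617 genes were. Of the other 4, 3 were apart (IGFBP3, IGFBP4 and IGFBP6), against 41.2% of all genes compared, and IGFBP7 had a lower limit of 0 in every set. IGFBP3 passed the minimum only through q1 and q2, where it was highest. IGFBP6 measured 18.6 FPKM in q1 (12.4 to 21.5), 18.3 in q2 (12.2 to 21.1), 1.86 in q3 (1.04 to 2.59) and 1.39 in q4 (0.755 to 1.98). IGFBP4 measured 19.3, 13.2, 4.55 and 3.22 FPKM in q1 to q4. Both had q1 and q2 apart from q3 and q4, as did IGF1. IGF2 and INS, the other ligands, were below 1 FPKM in every set, and IGF2R, a clearance receptor for IGF2, was between 38.0 and 47.3 FPKM with all sets overlapping.

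Downstream of IGF1R, 7 of 12 genes above the minimum were apart, against 41.2% of all genes compared. The adaptor GRB2 was the most abundant, at 71.2 to 97.7 FPKM, with all sets overlapping.

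Markers of the labelled cell type were present in the table. All 8 plasma cell markers reached 1 FPKM in at least 1 set, while 11617 of the 23617 genes in the table did not. CD38 and SLAMF7 reached it in q1 and q2 only. The summed level of the 8 was 847 to 1209 FPKM, of which XBP1 alone made up 395 to 488. The sum therefore does not describe each marker, and the markers did not share 1 pattern between sets. Of 18 markers of B, T, myeloid and stromal cells, 15 were below 1 FPKM in every set, against 11617 of the 23617 genes in the table. CD3D was at 0 in every set. Summed over each list, B cell markers came to 0.379 to 1.25 FPKM, T cell markers to 0.133 to 4.85, myeloid markers to 0.111 to 0.231 and stromal markers to 0.141 to 1.15. The exceptions were BCL6, CD3E (3.33, 4.64, 0.199 and 0.0897 FPKM in q1 to q4) and PDGFRB (1.05 FPKM at most). CD3E was higher in q1 and q2, as was IGF1. The part of other cells in the results above was not tested.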

How the data were processed

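RNA from 8 samples of 2 lines was sequenced. Per the labels and the study's methods, the authors used CASAVA 1.8.2, aligned reads to hg19 with STAR 2.3.0 and computed FPKM with Cuffdiff on the UCSC annotation. The deposited table gives FPKM, its confidence limits and a status for each gene in 4 unlabelled sets. Values per replicate were not analysed here and the depth is unknown, so no test, SD or p-value is given.

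Values were used as deposited. Genes with a status of OK in every set and at least 1 FPKM in 1 set were compared by their limits, and log2 ratios used a pseudocount of 1. The code of the rule for limits was checked on made-up values with fixed limits and no noise. That check cannot show how the rule behaves under spread between replicates. Interval starts were counted from 1, strands came from GENCODE release 44 on GRCh37, and promoter sequence was read from that assembly. Python 3.11.15, pandas 2.3.3 and matplotlib 3.10.9 were used. Named genes were the 10 members, the gene with the highest value in each pathway list and up to 5 further genes per list. The latter had limits apart and a ratio of at least 2 on the scale of FPKM plus 1. WHSC1 was named because the sets carry no label. Genes named outside this rule (CNTF, IL27RA, PTPN1, IGFBP3, IGFBP7, BCL6, JAK3, TYK2, STAT4, SOCS1, IGF2, INS, PDGFRB, CD3D, CD3E and those in the closing section) were chosen after their values were seen. Members and lists were chosen with earlier results of these data known. Some genes and sequences that these rules would name are not reported here.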

Additional observations from a re-analysis of the deposited data

How the results depend on the processing

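The count of members at 1 FPKM or more, 9, was 8 or 9 under minimums of 0.5 and 2 FPKM and under both other scalings. The count of members with limits apart was 6 with no minimum, with median-ratio scaling and with any status. It was 2 when a ratio of at least 2 on the scale of FPKM plus 1 replaced the limits. IL6R, at a ratio of 3.78 without the added 1, fell short of 2 on that scale. For the other pathway genes the count of 35 became 40 with no minimum, 36 with median-ratio scaling and 17 with the ratio rule, which by construction asks for a larger difference than most of the limits do. Rescaling every set to the same sum (TPM) shifted sets by at most 0.11 on the log2 scale against each other. Under both scalings, IL6R, SOCS3 and IL10RA remained higher in q1 than in q2, and IL6R and SOCS3 higher in q3 than in q4. These last checks were chosen after seeing the data. Of 40 recomputed log2 ratios for single members none reversed. A total of 7 moved by more than the distance of the limits from the values, combined over both sets. Of these, 6 moved with a smaller pseudocount (IL6, IL6R and IGF1) and 1 with TPM (IL6R, 1.21 against 0.81). TPM multiplied the values by 1.99 to 2.15 while the pseudocount stayed at 1, so it also acted as a smaller pseudocount. No paired analysis was possible because the table holds no value per replicate.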

Other observations

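The plasma cell markers did not share 1 pattern between sets. SDC1 (CD138), the adhesion proteoglycan used to identify plasma cells, measured 67.4 FPKM in q1 (limits 55.0 to 79.9), 116 in q2 (94.8 to 138), 7.33 in q3 (5.90 to 8.76) and 4.51 in q4 (3.63 to 5.40). SLAMF7, a plasma cell surface receptor, measured 7.45 FPKM in q1, 10.7 in q2, 0.0489 in q3 and 0.0231 in q4. CD38, a surface enzyme of plasma cells, measured 2.73 FPKM in q1, 2.34 in q2, 0.280 in q3 and 0.436 in q4. For all 3 genes q1 and q2 were apart from q3 and q4, and for SDC1 the limits of q1 and q2 were also apart from each other, with q2 the higher, as were those of q3 and q4, with q3 the higher. Other plasma cell markers had the opposite order. IRF4, a transcription factor of plasma cells, measured 110 and 105 FPKM in q1 and q2 against 209 and 210 in q3 and q4. PRDM1, the regulator of plasma cell differentiation, measured 47.4 and 37.5 FPKM against 73.4 and 73.3. For both genes q1 and q2 were apart from q3 and q4. TNFRSF17 (BCMA), a surface receptor, measured 125, 147, 221 and 235 FPKM in q1 to q4, with q1 apart from q3 and q4 and q2 overlapping them. MZB1 was lowest in q1, at 91.7 FPKM, and 177 to 198 in the other sets. XBP1 overlapped throughout, at 395 to 488 FPKM.

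BCL6, a germinal centre repressor, had the order of values q1, q3, q2, q4 that SOCS3 and IL6R also had, at 1.16, 0.557, 0.530 and 0.252 FPKM, with q1 and q2 apart and q3 and q4 overlapping. The limits of q3 and q2 overlapped for BCL6 and IL6R, so that step of the order was resolved for SOCS3 alone. BCL6 was singled out after its values were seen.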
